A study of Homo sapiens with 12 samples.

Results

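The gene set described here holds 48 interferon-stimulated, interferon-signalling and antigen presentation genes, chosen by symbol. All 48 were found among the 34602 gene symbols of the authors' deposited table of mRNA stability. The set comprised 27 induced effectors and sensors, 11 signalling genes and 10 presentation genes. DDX58 carries the current symbol RIGI. The symbols HLA-H, TAP1 and TAP2 were once also used for HFE, SEC14L2 and SEC14L3, which the authors' deposited table lists apart with scores between -0.0483 and 0.0475 over both lines.

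Interferons are secreted proteins that put cells into an antiviral state. Type I interferons bind IFNAR1 and IFNAR2, whose kinases JAK1 and TYK2 lead to a complex of STAT proteins with IRF9 that binds the interferon-stimulated response element (ISRE) in front of antiviral genes. Interferon also raises the class I antigen presentation machinery, which loads peptides onto HLA heavy chains paired with beta-2-microglobulin at the cell surface.

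The cells were MDA-MB-231, a human triple-negative breast cancer line. A tRNA-Glu gene (Glu-TTC) or a tRNA-Arg gene (Arg-CCG) was stably over-expressed, and a mock line served as control. RNA was taken after 0 or 9 h of α-amanitin at 10 µg/mL, which blocks RNA polymerase II, so that the mRNA left reflects decay. Of 12 Illumina BeadChip arrays, each of the 6 combinations of line and time had 2, and all groups came from this 1 cell line without added interferon in the labels. How the over-expressing lines were derived, and whether the replicates were separate cultures, is not stated in the labels.

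Stability in the authors' deposited table is 1 signed number per gene and tRNA line, relative to control. Its headers name stability of each tRNA line against control, so scores above 0 were read here as mRNA more stable than in the control line. The sign convention, how a score was computed and on which scale are not stated. It holds no replicate values, errors or p-values, and no probe of the arrays could be named by gene, so no member has a value per array, an expression level or a test. Whether each member was expressed in these cells, and whether the line's own markers were, was therefore not measured here. As a yardstick, 377 olfactory receptor genes, which breast cells are not known to use, gave a band of scores that holds their central 95%. This silent-set band ran from -0.0981 to 0.103 for tRNA-Glu and from -0.117 to 0.0932 for tRNA-Arg by the authors' deposited table. Whether scores of expressed genes have the same spread between arrays as silent ones was not tested. On the arrays themselves, limma called 1 of 25456 probes for the tRNA-Glu stability difference at an adjusted p of 0.05 (0.00393%), with 4394 at an unadjusted p of 0.05. It called 0 for tRNA-Arg (0%), with 1553 at an unadjusted p of 0.05, and 0 between both tRNAs (0%), with 2472 unadjusted. The tRNA-Glu count was 340 with a larger offset added after background correction, 267 without background correction and 108 with the authors' processed values. Replicate 1 of tRNA-Glu at 0 h stood apart from the other 0 h arrays on the second principal component, at -29.9 against 0.780 to 10.7. Without replicate 2 of that group, which left this array alone there, 2260 probes were called for tRNA-Glu and 622 between both tRNAs, and without replicate 1 none was. Without mock 0 h replicate 2, 9 probes were called for tRNA-Arg. The authors' deposited table gives no score without single arrays, so the weight of this array in the scores was not tested.

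The ISRE, through which type I interferon acts, is shown first because it is a feature of the members that the scores did not use. RefSeq promoter windows (build GRCh38.p14) were matched for 37 of the 48 members. The ISRE core was searched as GAAANNGAAA on both strands in the 250 bases before each transcription start. It was present for 20 of these 37 members (54.1%), against 3.71% of 27305 genes and 3.02% of 35116 windows of the same length. Of the matched members, 10 have more than 1 window, and a gene counts if any of its windows holds the motif. The site bound by interferon-gamma signalling, searched as TTCNNNGAA (its own reverse complement), was present for 9 of 37 members (24.3%) against 8.09% of all genes. Matches of both motifs may lie in 1 window, and a match is a description of letters, not evidence of binding. Members were chosen for their link to interferon. Shares above those of all genes can therefore follow from the choice of genes and are not read as a result.

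For 9 members with a match, 60 bases around it are printed 5′ to 3′ on the gene's strand, with the GAAANNGAAA match or its reverse complement in capitals. The capitals start between 51 bases (IFIT3) and 156 bases (HLA-F) before the transcription start. The 9 members are ordered from the lowest to the highest tRNA-Glu score.
HLA-F, chr6:29723253-29723312, plus strand: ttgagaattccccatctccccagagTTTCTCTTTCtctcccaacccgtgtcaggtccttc
IFIT3, chr10:89332453-89332512, plus strand: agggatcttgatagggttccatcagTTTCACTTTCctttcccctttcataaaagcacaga
TAP1, chr6:32853798-32853857, minus strand: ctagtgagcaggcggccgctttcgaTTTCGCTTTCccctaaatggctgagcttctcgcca
OAS3, chr12:112938306-112938365, plus strand: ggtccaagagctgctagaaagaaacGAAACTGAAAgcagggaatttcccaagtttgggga
IFIT1, chr10:89392482-89392541, plus strand: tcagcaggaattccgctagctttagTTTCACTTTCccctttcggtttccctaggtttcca
ISG15, chr1:1013365-1013424, plus strand: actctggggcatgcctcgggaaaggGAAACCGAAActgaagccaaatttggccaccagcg
ISG20, chr15:88638922-88638981, plus strand: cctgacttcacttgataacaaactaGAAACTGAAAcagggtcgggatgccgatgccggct
IFI44, chr1:78649746-78649805, plus strand: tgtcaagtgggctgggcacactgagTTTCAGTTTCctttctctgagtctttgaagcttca
BST2, chr19:17405720-17405779, minus strand: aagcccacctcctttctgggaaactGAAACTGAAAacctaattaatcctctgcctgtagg
The capitals are the same letters in IFIT1 and IFIT3, and the same in OAS3, ISG20 and BST2, with their reverse complement in IFI44. Some of these genes, such as IFIT3, IFIT1 and OAS3, hold further matches that are not printed. A further match of IFIT3 has the capitals printed for IFI44, and a match of B2M has those printed for OAS3. Which genes share letters therefore depends on the match printed. OAS3, ISG20, IFI44 and BST2 had tRNA-Glu scores of -0.188, 0.117, 0.304 and 0.367 in the authors' deposited table, so the same core stood before genes with scores on either side of 0. The 20 members with an ISRE match had a median score of -0.0422 for tRNA-Glu and -0.0666 for tRNA-Arg by the authors' deposited table. The 17 matched members without one had medians of 0.00281 and 0.0126 in the authors' deposited table. Ranges overlapped widely: for tRNA-Glu, -0.455 to 0.367 with a match and -0.694 to 0.453 without, in the authors' deposited table.

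Over the whole set, more members stood below the silent-set band than above it in both lines, though for tRNA-Glu the counts lay close together once the HLA and IFITM genes were left out. For tRNA-Glu the authors' deposited table put 16 of 48 members below the band (33.3%), against 11.7% of all genes. Above it were 9 members (18.8%), against 13.1% of all genes, and the median member was at -0.0254 against 0.00489 for all genes of the authors' deposited table. For tRNA-Arg, 14 members (29.2%) were below against 5.99% of all genes, and 4 (8.33%) were above against 10.1%, in the authors' deposited table. Some HLA and IFITM genes may be too alike for 1 probe to separate. Without the HLA and IFITM genes, 10 of 40 members were below the tRNA-Glu band and 8 above, in the authors' deposited table. Of these 40 members, 12 were below the tRNA-Arg band and 3 above, in the authors' deposited table. Their tRNA-Glu median was -0.0148, and the 27 effectors and sensors alone had a tRNA-Glu median of 0.00281 in the authors' deposited table. With the central 95% of all genes as the band, chosen after the data were seen, the authors' deposited table put 6 members below and 4 above for tRNA-Glu, with 11 below and 0 above for tRNA-Arg. By construction that band holds 95% of all genes, with equal shares below and above, so the shares given for the silent-set band do not apply to it. The median member for tRNA-Arg was at -0.0164, with 0.00166 for all genes of the authors' deposited table. Many symbols of the table are placeholders such as LOC numbers, and among the 20941 others the shares below were 15.3% for tRNA-Glu and 7.71% for tRNA-Arg by the authors' deposited table. Both lines were scored against the same control, so their scores are not independent of each other.

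**Figure D1:**
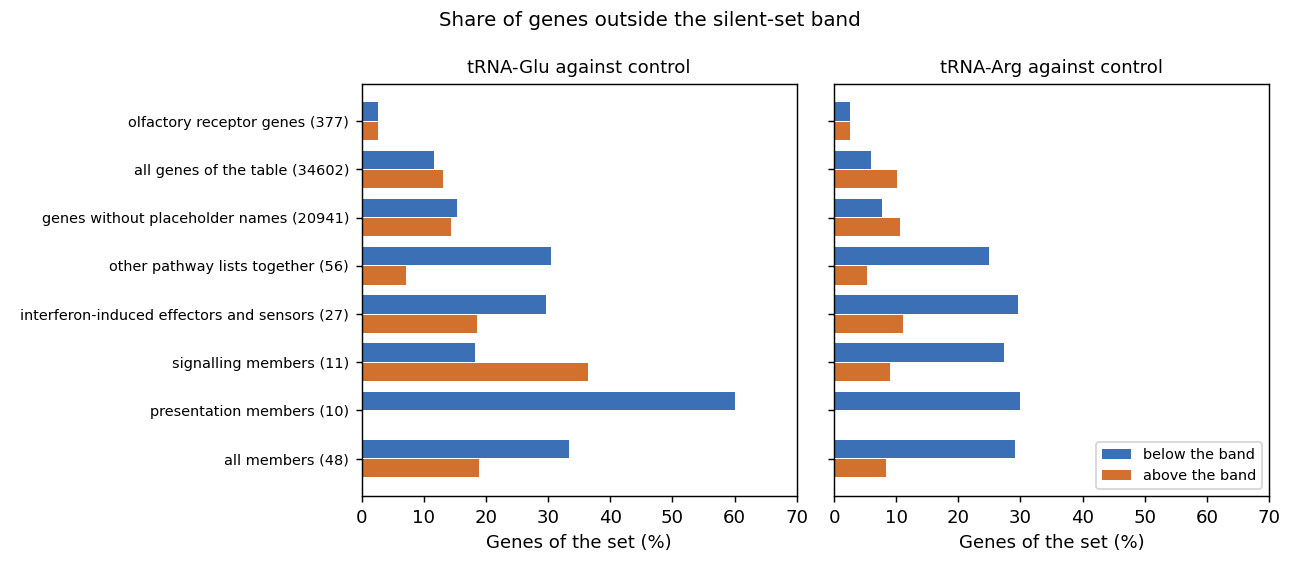
Bars give the percentage of genes in each set (number of genes in parentheses) whose score lies below (blue) or above (orange) the silent-set band, for tRNA-Glu (left) and tRNA-Arg (right). The 10 presentation members had 60% below and none above for tRNA-Glu, and the 48 members together had 33.3% below and 18.8% above.

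Class I HLA genes held the 2 lowest tRNA-Glu scores of the set. Of the 5 HLA genes, 4 were below the tRNA-Glu band, against 11.7% of all genes. The median of the 5 was -0.455, against 0.00489 for all genes, by the authors' deposited table. HLA-H, a class I pseudogene, was the lowest of all members, at -1.01 for tRNA-Glu and -0.400 for tRNA-Arg by the authors' deposited table. HLA-E, which presents leader peptides to receptors of natural killer cells, had -0.731 and -0.0905 in the authors' deposited table, the second value inside the band. HLA-F, a non-classical heavy chain, had -0.455 and -0.168, below both bands, in the authors' deposited table. The classical heavy chain HLA-B had -0.385 for tRNA-Glu but 0.000172 for tRNA-Arg by the authors' deposited table. HLA-C, its neighbour and close relative, was inside both bands at -0.0374 and 0.0677 in the authors' deposited table. The shared light chain B2M was inside both bands, at 0.0996 and -0.0204 in the authors' deposited table. HLA genes are near-identical in parts, so 1 probe may report more than 1 of them, and the 5 scores may not be separate measurements.

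The other 4 antigen processing genes were either below a band or inside both. None was above, against 13.1% of all genes for tRNA-Glu and 10.1% for tRNA-Arg, so none among 4 is not read as a result. TAP1, a subunit of the peptide transporter, had -0.228 for tRNA-Glu and -0.285 for tRNA-Arg, below both bands in the authors' deposited table. Its partner TAP2 was inside both, at -0.0515 and 0.0120 in the authors' deposited table. TAPBP, or tapasin, which bridges the transporter and the heavy chain, had -0.139 and -0.115 in the authors' deposited table, the second just inside its band. IFI30, a lysosomal thiol reductase known mainly for unfolding antigens for class II presentation, had -0.0479 and 0.0491 in the authors' deposited table. All told, 6 of the 10 presentation members were below the tRNA-Glu band (against 11.7% of all genes) and 0 above (13.1% of all genes) in the authors' deposited table. For tRNA-Arg, 3 of them were below (against 5.99% of all genes) and 0 above (10.1% of all genes) in the authors' deposited table. As 4 of the 6 below for tRNA-Glu and 2 of the 3 for tRNA-Arg are HLA genes, these counts may hold fewer separate measurements. A further list of 12 immunoproteasome, peptide-loading and trimming genes had 4 below and 0 above for tRNA-Glu, and 3 below and 0 above for tRNA-Arg by the authors' deposited table. Of these, CALR, a chaperone of the loading complex, had -0.468 and -0.301, and ERAP2, a peptide-trimming protease, had -0.274 and -0.207 in the authors' deposited table. Under its older symbol LRAP, ERAP2 is listed again with -0.161 and 0.0339 in the authors' deposited table, the second value inside its band. TAPBPL was highest of that list at 0.0487 for tRNA-Glu by the authors' deposited table.

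**Figure D2:**
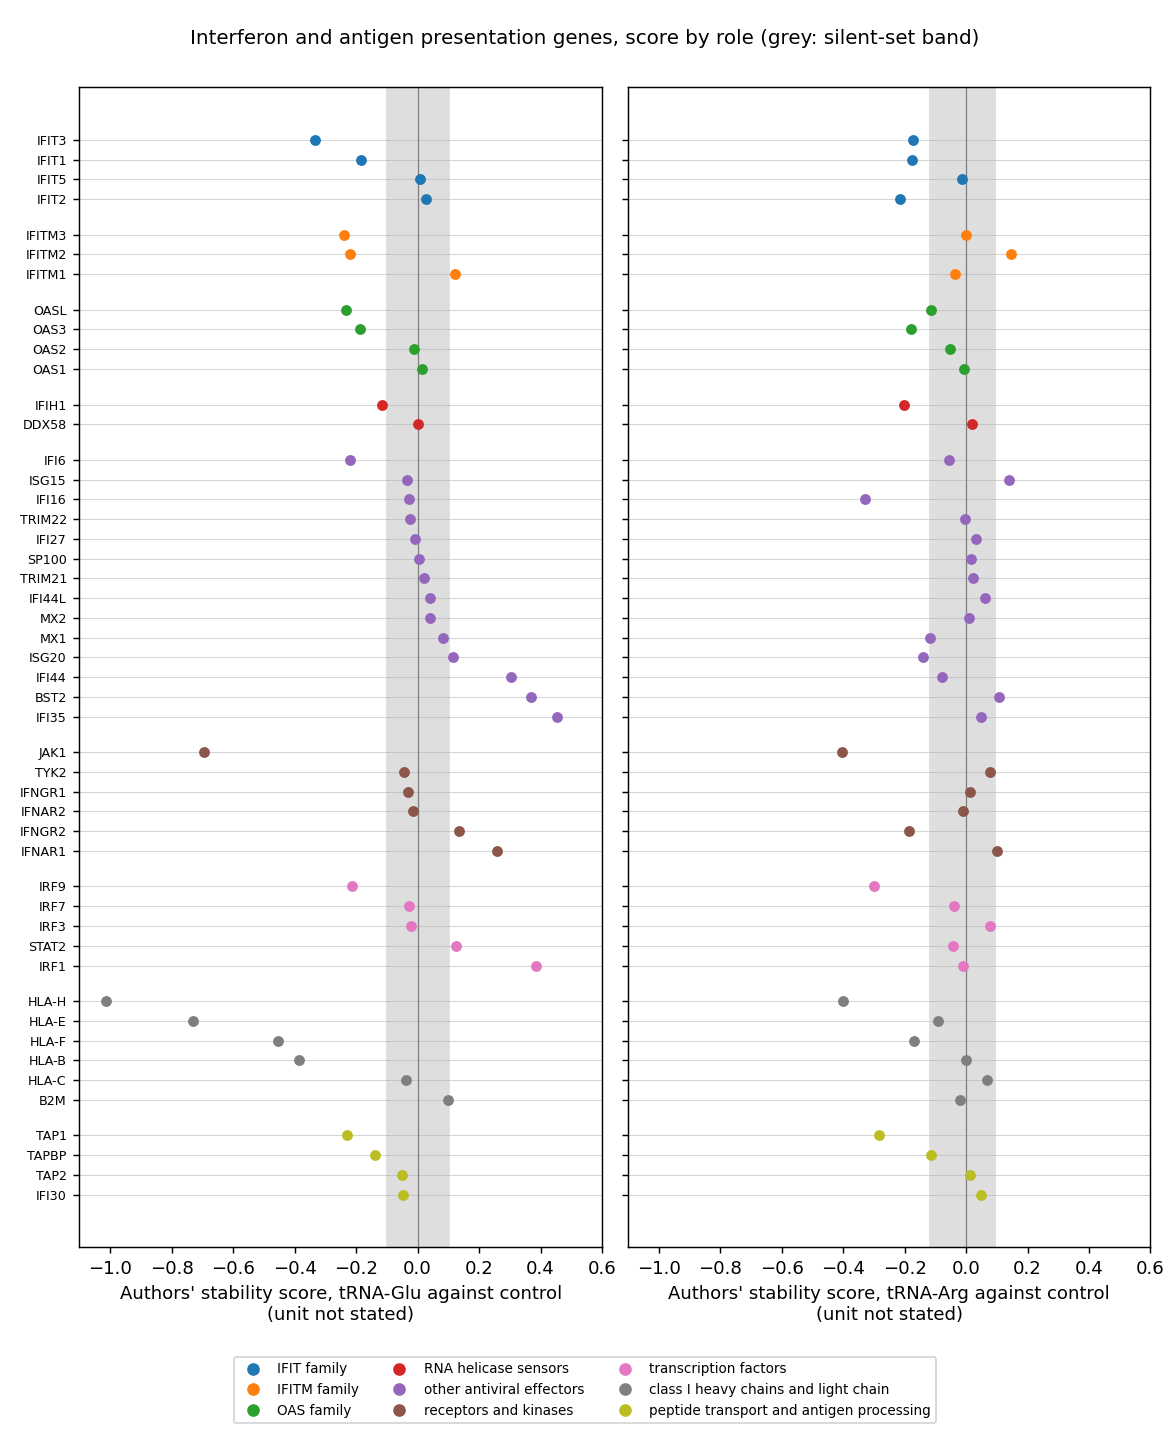
Each point is 1 member's score (horizontal axis, unit not stated) for tRNA-Glu (left) and tRNA-Arg (right), coloured by role and ordered within a role by the tRNA-Glu score. Grey marks the silent-set band, and HLA-H at -1.01 and JAK1 at -0.694 lie far to its left for tRNA-Glu.

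Of the 4 IFIT genes, whose proteins bind foreign RNA ends and block their translation, none was above a band. Of all genes, 13.1% were above for tRNA-Glu and 10.1% for tRNA-Arg, so none among 4 is not read as a result. IFIT3 had -0.332 for tRNA-Glu and -0.171 for tRNA-Arg by the authors' deposited table. IFIT1 had -0.185 and -0.176, like IFIT3 below both bands, in the authors' deposited table. IFIT2 was below the band for tRNA-Arg alone, at -0.214 against 0.0282 for tRNA-Glu by the authors' deposited table. IFIT5 was inside both bands at 0.00735 and -0.0125 in the authors' deposited table.

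The OAS enzymes, which answer double-stranded RNA by making the oligoadenylates that switch on RNase L, were split. OAS3 had -0.188 for tRNA-Glu and -0.181 for tRNA-Arg, below both bands, in the authors' deposited table. OASL, a relative without that enzyme activity, had -0.231 and -0.114 in the authors' deposited table, the second just inside its band. OAS1 and OAS2 were inside both bands, between -0.0535 and 0.0144 in the authors' deposited table. Of the helicases that sense viral RNA, IFIH1 (MDA5) had -0.117 and -0.202, below both bands, and DDX58 (RIG-I) had 0.00281 and 0.0198 in the authors' deposited table.

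The IFITM genes, whose membrane proteins hinder virus entry, pointed different ways. IFITM3 had -0.238 for tRNA-Glu and -0.00141 for tRNA-Arg by the authors' deposited table. IFITM2 was below the tRNA-Glu band at -0.219 and above the tRNA-Arg band at 0.145 in the authors' deposited table. IFITM1 was above the tRNA-Glu band at 0.123 and inside the other at -0.0362 in the authors' deposited table. These genes are close relatives, so 1 probe may not separate all of them.

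Of the other 14 effectors, 4 were above the tRNA-Glu band (28.6%, against 13.1% of all genes), 1 below (7.14%, against 11.7%) and 9 inside in the authors' deposited table. IFI35, an interferon-induced leucine zipper protein, had the highest score of all members for tRNA-Glu, 0.453, and 0.0491 for tRNA-Arg by the authors' deposited table. BST2, or tetherin, which holds budding virus at the cell surface, had 0.367 and 0.106, above both bands, in the authors' deposited table. IFI44 had 0.304 and -0.0782 in the authors' deposited table, whereas its neighbour and relative IFI44L had 0.0391 and 0.0613. The exonuclease ISG20 was above the tRNA-Glu band at 0.117 and below the tRNA-Arg band at -0.140 in the authors' deposited table. IFI6, an inhibitor of cell death, was the 1 effector of this group below the tRNA-Glu band, at -0.219, with -0.0551 for tRNA-Arg by the authors' deposited table.

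For tRNA-Arg the same 14 effectors had 3 below the band (21.4%, against 5.99% of all genes) and 2 above (14.3%, against 10.1%) in the authors' deposited table. IFI16, a sensor of foreign DNA, had -0.329 for tRNA-Arg, the third-lowest of all members, and -0.0271 for tRNA-Glu by the authors' deposited table. The antiviral GTPase MX1 was just below the tRNA-Arg band at -0.118 and inside the other at 0.0820 in the authors' deposited table. ISG15, a ubiquitin-like modifier, was above the tRNA-Arg band at 0.140 and inside the other at -0.0330 in the authors' deposited table. MX2, IFI27, IFI44L, TRIM21, TRIM22 and SP100 were inside both bands, between -0.0237 and 0.0613 in the authors' deposited table.

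Of the signalling genes, scores ran from one of the lowest of the set to one of the highest. JAK1, the kinase that serves both interferon receptor types, had -0.694 for tRNA-Glu and -0.404 for tRNA-Arg by the authors' deposited table. The tRNA-Arg value was the lowest of all 48 members, at the 0.0838th percentile of all genes in the authors' deposited table. TYK2, its partner at the type I receptor, was inside both bands at -0.0429 and 0.0768 in the authors' deposited table. IFNAR1, a chain of the type I receptor, had 0.260 and 0.100, above both bands, in the authors' deposited table. IFNAR2, the other chain, was inside both at -0.0163 and -0.0107 in the authors' deposited table. Of the interferon-gamma receptor chains, IFNGR2 had 0.135 for tRNA-Glu and -0.186 for tRNA-Arg, outside both bands in opposite directions, in the authors' deposited table. IFNGR1 was inside both at -0.0316 and 0.0126 in the authors' deposited table.

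IRF9, the DNA-binding part of the complex that recognises the ISRE, had -0.212 for tRNA-Glu and -0.298 for tRNA-Arg, below both bands in the authors' deposited table. STAT2, its partner, had 0.124 and -0.0438 in the authors' deposited table, above the band for tRNA-Glu alone. IRF1, a short-lived factor that drives TAP1 and HLA genes, had 0.385 for tRNA-Glu, second only to IFI35 among members, and -0.0104 for tRNA-Arg by the authors' deposited table. IRF3 and IRF7, which switch on the interferon genes themselves, were inside both bands, between -0.0391 and 0.0767 in the authors' deposited table. Altogether 2 of 11 signalling members were below the tRNA-Glu band (18.2%, against 11.7% of all genes) and 4 above (36.4%, against 13.1%) in the authors' deposited table. For tRNA-Arg, 3 were below (27.3%, against 5.99% of all genes) and 1 above (9.09%, against 10.1%) in the authors' deposited table.

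**Figure D3:**
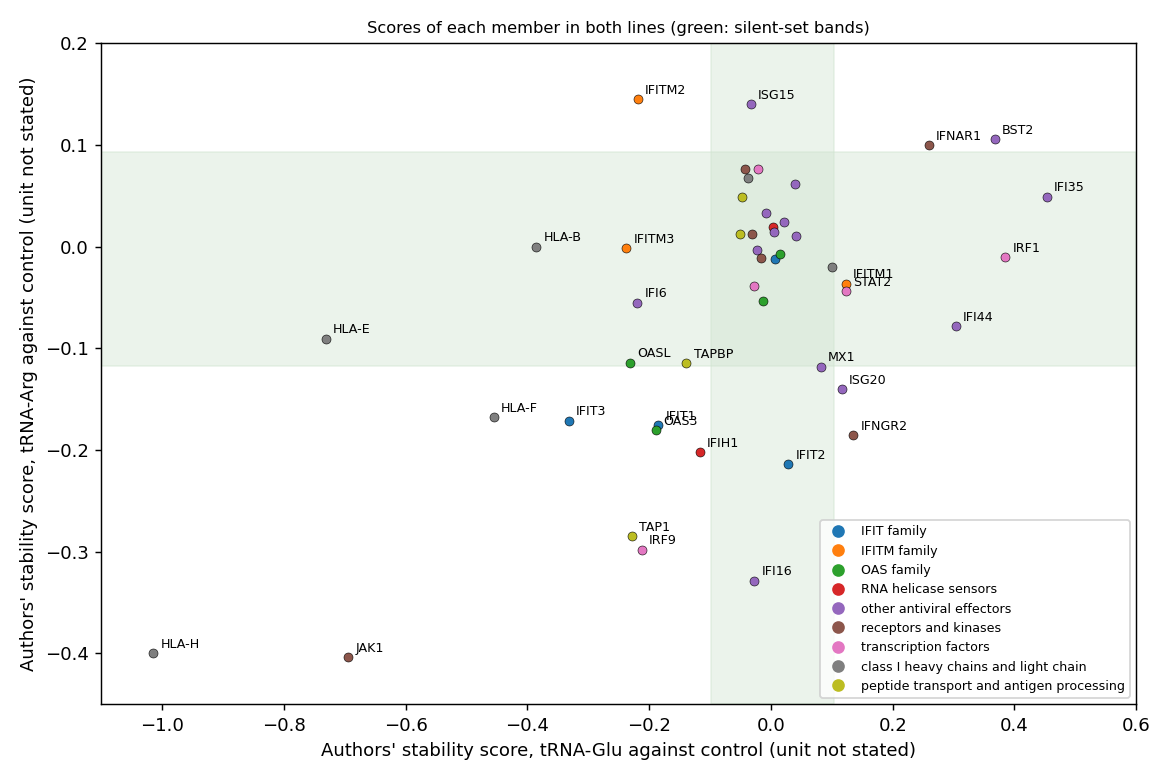
Each point is 1 member, placed by its tRNA-Glu score (horizontal) and its tRNA-Arg score (vertical), units not stated, and coloured by role. Green marks the silent-set band of each line, members outside either band are named, and both axes use the same control arrays, so the axes are not independent.

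Other genes of the pathway, from lists not selected by score, stood as follows. Of 32 further interferon-induced genes, 8 were below the tRNA-Glu band (25.0%, against 11.7% of all genes) and 4 above (12.5%, near the 13.1% of all genes) in the authors' deposited table. For tRNA-Arg, 9 were below (28.1%, against 5.99% of all genes) and 3 above (9.38%, near the 10.1% of all genes) in the authors' deposited table. LGALS3BP, a secreted glycoprotein, had -0.723 for tRNA-Glu and -0.342 for tRNA-Arg by the authors' deposited table. TRIM25, the ubiquitin ligase that activates RIG-I, had -0.483 and 0.0120 in the authors' deposited table. The guanylate-binding proteins GBP3 and GBP1 had 0.546 and 0.225 for tRNA-Glu, and 0.147 and 0.353 for tRNA-Arg by the authors' deposited table. Their relative GBP2 was inside the tRNA-Glu band at 0.0756 and below the tRNA-Arg band at -0.131 in the authors' deposited table. Of 12 genes of nucleic acid sensing and its regulators, 5 were below and 0 above the tRNA-Glu band, with 2 below and 0 above for tRNA-Arg by the authors' deposited table. SOCS1 and SOCS3, which switch JAK kinases off, had -0.320 and -0.145 for tRNA-Glu, and -0.210 and -0.159 for tRNA-Arg by the authors' deposited table. Over the 56 genes of these lists together, 30.4% were below and 7.14% above the tRNA-Glu band, and 25.0% below and 5.36% above the tRNA-Arg band, in the authors' deposited table. Leukocyte markers, 6 in all, had scores between -0.235 and 0.116 for tRNA-Glu by the authors' deposited table, the lowest being CD74. Luminal epithelial markers were inside both bands in 5 of 6 cases, the exception being KRT19 at -0.748 and -0.152 in the authors' deposited table. The 6 markers of the MDA-MB-231 line ran from -0.202 to 0.544 for tRNA-Glu by the authors' deposited table, and none of these scores tells whether the gene was expressed.

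How far 1 score can be relied on was read from listed symbols that RefSeq synonyms join to the same current symbol. A current symbol and a synonym of it, here called the older symbol, were both listed in 404 pairs, none of them of a member. Some synonyms look like names of separate family members, such as GAGE4 for GAGE1 or SPANXF1 for SPANXB1. Some current symbols recur, such as XAGE1B. A pair may therefore not be 1 gene, and the pairs are not all separate. Across these pairs the scores under both symbols had a Pearson correlation of 0.245 for tRNA-Glu and 0.191 for tRNA-Arg by the authors' deposited table, the points sharing the same arrays. The median absolute difference within a pair was 0.0848 for tRNA-Glu and 0.0678 for tRNA-Arg by the authors' deposited table. Where the current symbol was below the tRNA-Glu band (68 pairs), the older one was below it in 14, inside it in 43 and above it in 11, in the authors' deposited table. For tRNA-Arg, 35 current symbols were below the band, and their older symbols were below in 4, inside in 28 and above in 3, in the authors' deposited table. Entries under 2 symbols may come from probes to different transcripts, and whether either was expressed was not tested. Several members lay closer to a band's edge than the median difference within a pair, so their side of the edge is not firm. For tRNA-Arg these included TAPBP (-0.115) and OASL (-0.114) just inside the lower edge and MX1 (-0.118) just below it in the authors' deposited table. IFIT1 (-0.176), IFIT3 (-0.171), OAS3 (-0.181), HLA-F (-0.168) and ISG20 (-0.140), further below that edge, were also closer to it than this difference. At the upper edge every member above the tRNA-Arg band was that close: IFNAR1 (0.100), BST2 (0.106), ISG15 (0.140) and IFITM2 (0.145) by the authors' deposited table. For tRNA-Glu, B2M (0.0996) was just inside the upper edge and ISG20 (0.117) just above it, again in the authors' deposited table. IFITM1 (0.123), STAT2 (0.124) and IFNGR2 (0.135) above that edge, and IFIH1 (-0.117) and TAPBP (-0.139) below the lower one, were that close too. The placing of IFIT1, IFIT3, OAS3, HLA-F and IFIH1 below both bands, and of BST2 and IFNAR1 above both, is thus not firm in both lines. As many pairs differed by more than the median as by less. The other members below both bands, such as TAP1 and IRF9, are therefore not shown to be firm either.

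**Figure D4:**
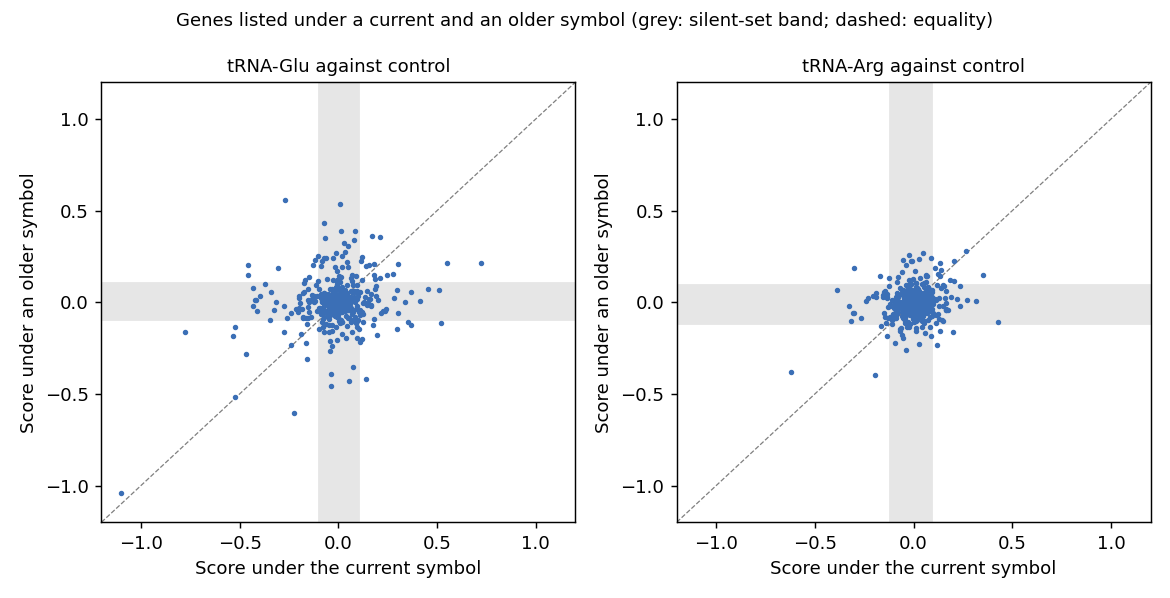
Each point is 1 of 404 pairs, with the score under the current symbol (horizontal) and under an older symbol (vertical), for tRNA-Glu (left) and tRNA-Arg (right), units not stated. Grey marks the silent-set band, the dashed line marks equality, and most pairs whose current symbol is below the band have the older symbol inside it (43 of 68 for tRNA-Glu).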

How the data were processed

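RNA of 12 MDA-MB-231 samples was measured on Illumina BeadChips, and groups were taken from the sample titles. Stability came as a score per gene and line in the authors' deposited table, made in steps not given in the sources used here. Array files hold a non-normalized intensity per probe, per the file headers, and the authors' processed intensity values, whose medians are 56.2 to 56.3. The submitters' processing notes name lumi without a version. Another 12 columns of per-sample values match no sample by name and were not used.

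Members, lists, the band and the motifs were chosen with earlier results of these data known. Each of the 48 members may be named. From the other pathway lists, genes with the 2 highest or lowest scores in either line were the pool for naming. The markers KRT19 and CD74, and GBP2 from outside that pool, were named after their values were seen. The design named array tests of 6 contrasts read from each member's probe. No table named probes, so scores were described without a test, and array tests were kept to the 3 stability contrasts as counts of probes. These used limma 3.58.1 in R 4.3.3 (normexp with offset 16, quantile normalization, log2, probes above the array median on both arrays of a group, Benjamini-Hochberg adjustment), checked on simulated data. Tables used Python 3.11.15 and pandas 2.3.3.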

Additional observations from a re-analysis of the deposited data

Results flagged for a closer look

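For 3 members the scores of both lines lay outside their silent-set bands in opposite directions, in the authors' deposited table. The difference between lines was not tested, since each line has 1 score. IFITM2 had -0.219 for tRNA-Glu and 0.145 for tRNA-Arg, ISG20 had 0.117 and -0.140, and IFNGR2 had 0.135 and -0.186 in the authors' deposited table. Over all genes of the authors' deposited table, 0.763% showed such opposite placing. Of the 377 silent-set genes 0 did, but the bands were drawn from these same genes, so that count is no comparison for the members. With the silent set's whole range as the band, chosen afterwards, the upper edges were 0.155 for tRNA-Glu and 0.223 for tRNA-Arg. ISG20 (0.117) and IFNGR2 (0.135) were then inside for tRNA-Glu and IFITM2 (0.145) for tRNA-Arg, so the opposite placing of each was lost. These scores lay closer to the silent-set band's edge than the median difference within a symbol pair, 0.0848 for tRNA-Glu and 0.0678 for tRNA-Arg. Whether 1 probe separates the IFITM copies was not tested.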

How the results depend on the processing

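The silent-set band decides how many members stand outside. With the central 95% of all genes as the band, chosen after seeing the data and holding 95% of all genes by construction, the tRNA-Glu members below and above numbered 6 and 4 and the tRNA-Arg members above 0. With genes lacking placeholder names as the band's source these were 5, 4 and 0, and tRNA-Arg members below numbered 7. That band holds 95% of its source genes by construction, with equal shares below and above. Its counts are therefore not comparable with those of the silent-set band. With the silent set's whole range, also chosen afterwards, the tRNA-Glu members numbered 14 below and 5 above, and the tRNA-Arg members 12 below and 0 above. The share of all genes outside that range was not computed. Without HLA and IFITM genes, 10 members were below for tRNA-Glu, and their median was -0.0148. Means in place of medians were -0.0700 for tRNA-Glu and -0.0617 for tRNA-Arg. The cause of the shift from medians to means was not tested.

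Probes called for tRNA-Glu stability numbered 1 with the settings reported, 267 without background correction, 340 with an offset of 50, 113 with median scaling and 108 when the authors' processed values were used. For tRNA-Glu against tRNA-Arg an offset of 50 gave 1. The cause was not tested. Leaving out 1 array at a time gave 0 to 2260 probes for tRNA-Glu, 0 to 9 for tRNA-Arg and 0 to 622 between them. The tRNA-Glu count moved without mock 0 h replicate 1 (2) or 2 (24), tRNA-Glu 0 h replicate 1 (0) or 2 (2260), or tRNA-Glu 9 h replicate 1 (4) or 2 (0). The tRNA-Arg count moved without mock 0 h replicate 2 (9). The count between both tRNAs moved without replicate 1 of tRNA-Arg at 0 h (1) or 9 h (1), replicate 2 of tRNA-Glu at 0 h (622), or tRNA-Glu 9 h replicate 1 (2) or 2 (1). No shared effect of the replicate number was seen: differences of replicate 1 from replicate 2 correlated between -0.255 and 0.0853 over 15 pairs of groups. Whether the replicates were paired by design is not stated in the labels. The fit with the replicate number as a block called 1 probe for tRNA-Glu and 0 for the other contrasts. The planned tests of the amanitin response and of the 0 h contrasts, and the choice among a gene's probes, were not run because no probe could be read as a member. With 1 score per gene, no error of a member's score could be computed.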
